A study of Homo sapiens with 21 samples.

Results

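The zinc finger genes of human chromosome 19 are the subject of these results. Members were all genes whose symbol is ZNF followed by a number in the array's annotation and which lie on chromosome 19 in the human gene annotation. Of 235 such genes, 185 reached the minimum signal used for every gene, and 50 did not and are not described. The table of the series as a whole held 12644 tested genes of 18132. Signal in any group of arrays, treated or untreated, decided which genes could be tested, and no test of response was used. The minimum was a highest group mean of 5.84 on the log2 scale, an intensity of 57.4. ZNF470 (5.88) and ZNF497 (5.85) lay just inside it, and ZNF333 (5.74) and ZNF324B (5.71) just outside. Of the 185 members, 183 are protein-coding, ZNF137P is a pseudogene and ZNF667-AS1 is a long noncoding RNA on the strand opposite a zinc finger gene.

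Zinc finger proteins of this class bind DNA through arrays of C2H2 fingers, and most of those encoded on chromosome 19 also carry a KRAB domain. The KRAB domain recruits TRIM28, which brings the histone methyltransferase SETDB1 and heterochromatin protein 1 to the bound DNA, and many of the target sites are transposable elements. The genes lie in clusters that grew by repeated tandem duplication, so neighbours are close relatives in sequence. THZ1 binds CDK7 covalently and inhibits it; CDK7 is a kinase in transcription factor TFIIH that phosphorylates RNA polymerase II.

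Total RNA of 4 human breast cancer lines was hybridised to Affymetrix expression arrays after 6 hours with DMSO, the solvent control, or with THZ1 at 50 or 250 nM. MDA-MB-468 and BT-549 are labelled triple-negative (lacking oestrogen receptor, progesterone receptor and HER2), ZR-75-1 is labelled ER+ and T47D ER+/PR+. Each of the groups DMSO, 50 nM and 250 nM has 2 arrays for MDA-MB-468, for ZR-75-1 and for T47D and 1 for BT-549, which makes 21 arrays in 12 groups. All lines were grown in RPMI-1640 with serum. The labels do not say whether paired arrays came from separate cultures, so the p-values measure the spread between arrays, which may be technical.

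Replicate arrays correlated at a Pearson r of 0.9941 to 0.9965 over genes, and every array had a mean intensity between 326.4 and 342.8. The lines carried their defining markers. With DMSO, ESR1, the oestrogen receptor, had a mean log2 level of 8.79 in ZR-75-1 and 9.82 in T47D, against 4.95 in MDA-MB-468 and no array above background in BT-549. KRT5, a basal keratin, was at 11.78 in MDA-MB-468, and VIM, vimentin, at 13.82 in BT-549. Of the immune and stromal markers, PTPRC, a leukocyte marker, was above background on no DMSO array. CD3E (4.94 to 5.16), COL1A1 (5.88 to 8.12) and PECAM1 (5.14 to 5.74) were above background in every line, and CD14 was at 8.18 in MDA-MB-468. Their part in the results was not tested. The samples titled ZR-75-1 and T47D carry the name of MDA-MB-468 in one label field, and the marker levels follow the titles and the cell line field instead. Because these are bulk samples, fewer cells making a transcript and less transcript per cell cannot be told apart.

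After 250 nM THZ1 most members were lower in each replicated line. The test was limma on log2 intensity with Benjamini-Hochberg adjustment over all 12644 genes, and a gene was called at an adjusted p under 0.05. In the first of these, MDA-MB-468, 156 of 185 members were called lower and 1 higher, where 30.3% of all genes tested were called lower and 9.54% higher. In ZR-75-1, 144 were lower and 1 higher, beside 42.8% and 9.93% of all genes. In T47D, 144 were lower and 0 higher, beside 33.7% and 9.61% of all genes, and the higher count was 2 or 1 without 250 nM replicate 1 or 2. The median change of the members was -1.15, -1.38 and -1.0 on the log2 scale in the order of these lines, and that of all genes tested was -0.07, -0.18 and -0.08. Members called lower with a fitted fall of at least 2-fold numbered 107, 119 and 92, where 10.6%, 18.1% and 9.44% of all genes met both conditions. With values that are not above background held at it, these counts were 104, 98 and 88, and the members' medians were -1.10, -1.06 and -0.96. The shares and medians of all genes are without this bound, so they are no match for these values. The members called higher (1, 1 and 0) became 5, 6 and 6 when each array was centred on its median and 7, 11 and 10 with quantile normalization.

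The 198 ZNF genes on other chromosomes had medians of -0.87, -1.08 and -0.70 in the lines in the same order, with 140, 167 and 146 called lower. The 770 tested genes on chromosome 19 that are no ZNF genes had medians of 0.01, 0 and 0.08, with 168, 197 and 132 called lower. The members' median change lay nearer to that of ZNF genes elsewhere than to that of the other genes on their chromosome; no test of these differences was made.

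**Figure D1:**
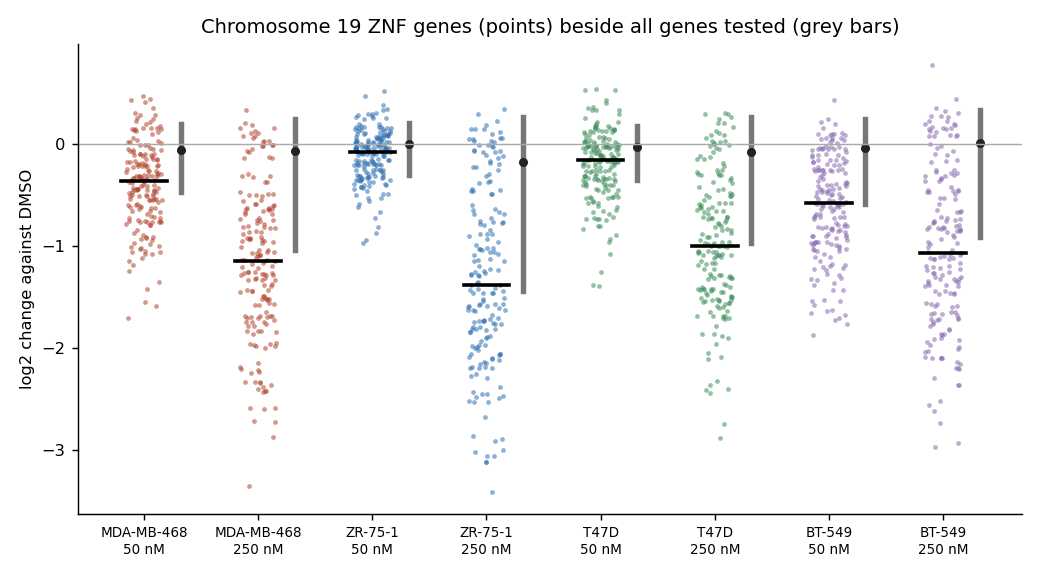
The log2 change of each of 185 members against DMSO (coloured points, black bar at the median) by line and THZ1 dose, with the 10th to 90th percentile (grey bar) and median (black dot) of all 12644 genes tested. At 250 nM the members' medians lie between -1.38 and -1.0, and at 50 nM between -0.58 and -0.08; points have random horizontal spread and BT-549 has 1 array per dose.

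The same members were mostly lower in all replicated lines. At 250 nM, 125 of the 185 members were called lower in each of the 3 lines, where 23.0% of all genes tested were. Another 29 were lower in 2 lines, 11 in 1 line and 20 in none, and 51.4% of all genes were lower in none. Across the members, the change in one line followed that in another with a Pearson r of 0.70 between MDA-MB-468 and ZR-75-1, 0.76 between MDA-MB-468 and T47D and 0.71 between ZR-75-1 and T47D (185 genes each, in which levels near background set a shared limit on the size of a fall). Over all genes tested the same values were 0.80, 0.74 and 0.81. Each line has its own DMSO arrays, so none of these comparisons shares controls.

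ZNF627 had the largest mean fall over the 4 lines. In MDA-MB-468 its intensity was 322 and 328 with DMSO, 161 and 162 at 50 nM and 31.6 and 32.2 at 250 nM. In ZR-75-1 it was 262 and 244 with DMSO, 221 and 203 at 50 nM and 24.1 and 35.6 at 250 nM. In T47D it was 235 and 234 with DMSO, 185 and 193 at 50 nM and 45.9 and 48.2 at 250 nM. All 250 nM arrays thus lay far below all DMSO arrays of their line, and the single BT-549 arrays went from 267 to 131 and 35.0. The fitted change at 250 nM was -3.35 ± 0.13 (SE, n = 2 against 2) in MDA-MB-468, a 10.2-fold fall with an adjusted p of 1.10e-11. It was -3.11 ± 0.13 in ZR-75-1 (adjusted p = 1.37e-11) and -2.32 ± 0.13 in T47D (adjusted p = 1.40e-09).

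ZNF181, ZNF557, ZNF606 and ZNF772 completed the 5 members with the largest fitted changes across the 4 lines. ZNF181 was at 155 and 193 with DMSO and 22.4 and 25.0 at 250 nM in MDA-MB-468, at 118 and 99.2 and then 10.7 and 14.7 in ZR-75-1, and at 155 and 163 and then 21.99 and 25.9 in T47D. None of its 250 nM arrays was above the mean of the array's background probe sets, so only a bound can be given: at least 6.19-fold, 3.63-fold and 5.61-fold lower in the order of these lines. Such bounds were taken against the background mean of each array. A change counted as measured where at least 1 array of both groups compared was above background. At 250 nM only 1 of 2 arrays was above background for ZNF627 and ZNF100 in ZR-75-1, ZNF557 in T47D and ZNF420 in MDA-MB-468. ZNF557 fell from 219 and 228 to 25.3 and 30.4 in ZR-75-1 (at least 7.5-fold) and from 248 and 242 to 28.3 and 39.4 in T47D, a change of -2.88 ± 0.15 (SE, n = 2, adjusted p = 7.08e-10). ZNF606 went from 150 and 141 to 18.5 and 17.7 in ZR-75-1, at least 4.87-fold lower. ZNF772 went from 221 and 206 to 20.3 and 19.9 in ZR-75-1, at least 7.16-fold lower, and from 94.0 and 117 to 26.1 and 32.01 in MDA-MB-468. In these examples too the DMSO and 250 nM arrays did not overlap.

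**Figure D2:**
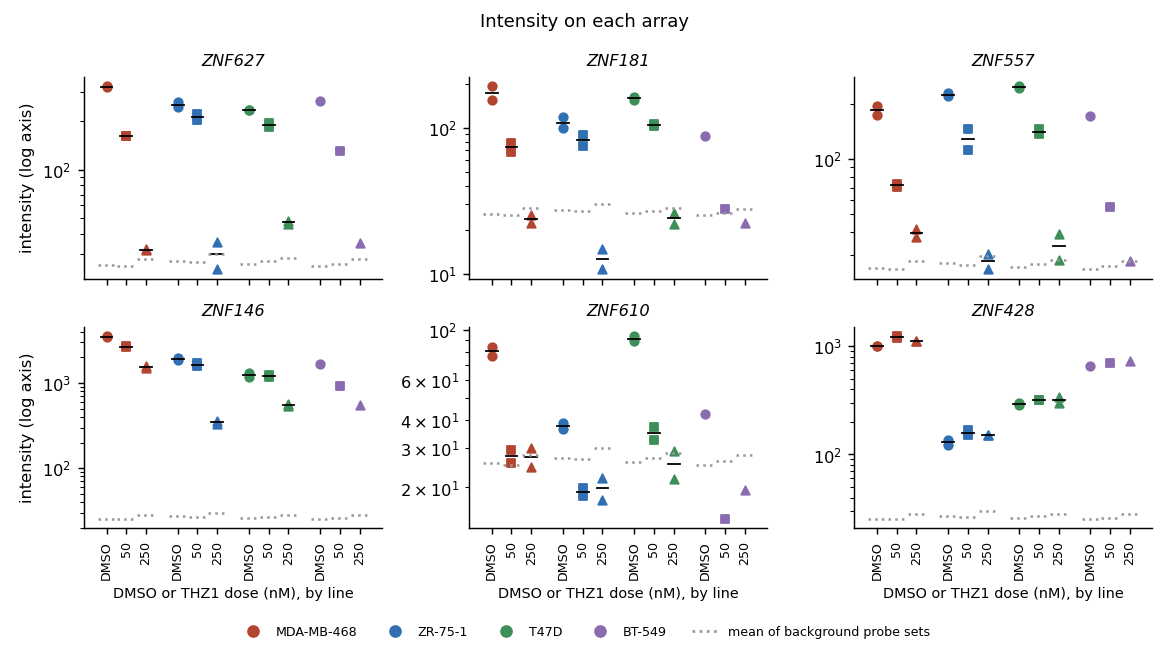
Intensity (log axis) on each array of 6 members in 4 lines, with DMSO (circles), 50 nM (squares) and 250 nM THZ1 (triangles); black bars are means of 2 arrays and dotted lines the mean of the background probe sets. ZNF627, ZNF181 and ZNF557 step down with dose, ZNF146 stays far above background, ZNF610 is near background already at 50 nM, and ZNF428 is not lower at either dose.

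The other members with the largest fitted changes per line are given with bounds where the 250 nM arrays were at background, and bounds have no order. In MDA-MB-468 they were ZNF823 (-2.72 ± 0.13), ZNF223, ZNF649, ZNF543, ZNF222 and ZNF607, with the last at -2.43 ± 0.11. ZNF223, ZNF649, ZNF543 and ZNF222 had no 250 nM array above background there, which allows bounds of at least 4.47-fold, 4.01-fold, 2.41-fold and 3.38-fold. In ZR-75-1 they were ZNF43 (at least 7.62-fold), ZNF100 (8.26-fold, -3.05 ± 0.23) and ZNF823 (at least 6.74-fold). In T47D they were ZNF264 (-2.40 ± 0.15), ZNF543 (at least 2.57-fold) and ZNF441 (-2.10 ± 0.36).

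The promoters of the members were read for shared sequence. RefSeq promoter windows of 300 bases (250 before to 50 after the gene's start, GRCh38.p14) matched 166 of the 185 members by gene ID. A 10-base word, CCTGATTGGA, which holds ATTGG, the reverse complement of the CCAAT box, was found on either strand in 31 of the 166 windows (18.7%). It was in 0.514% of the windows of all genes tested, 0.388% of all 27305 windows in the table, 6.17% of those of ZNF genes on other chromosomes and 0.15% of those of the other chromosome 19 genes. It was picked as the 10-base word in the most member windows among words in under 1% of all windows tested, a choice made after the promoters were searched, so its share is a description. Below are the 200 bases before the start of the 4 genes with the largest mean falls over the replicated lines among those whose window holds the word, followed by ZNF428, which did not fall. Capitals mark CCTGATTGGA or the ETS-type word CCGGAAG, here as their reverse complements. Each is given 5′ to 3′ on the gene's strand: ZNF627 at chr19:11597283-11597482 (plus strand), ZNF100 at chr19:21767580-21767779, ZNF43 at chr19:21836183-21836382, ZNF823 at chr19:11738947-11739146 and ZNF428 at chr19:43619630-43619829 (all minus strand).
ZNF627 promoter: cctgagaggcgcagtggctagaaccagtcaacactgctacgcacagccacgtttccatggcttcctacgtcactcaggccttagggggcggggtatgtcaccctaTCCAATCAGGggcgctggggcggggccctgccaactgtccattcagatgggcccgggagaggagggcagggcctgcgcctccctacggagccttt
ZNF100 promoter: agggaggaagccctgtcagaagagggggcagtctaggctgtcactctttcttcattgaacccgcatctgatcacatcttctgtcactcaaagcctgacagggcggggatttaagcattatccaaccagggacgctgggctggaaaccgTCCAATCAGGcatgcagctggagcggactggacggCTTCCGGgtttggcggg
ZNF43 promoter: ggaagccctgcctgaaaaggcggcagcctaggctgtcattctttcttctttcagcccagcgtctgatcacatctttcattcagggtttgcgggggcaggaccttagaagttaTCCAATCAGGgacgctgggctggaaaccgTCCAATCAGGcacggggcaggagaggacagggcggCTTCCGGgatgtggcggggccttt
ZNF823 promoter: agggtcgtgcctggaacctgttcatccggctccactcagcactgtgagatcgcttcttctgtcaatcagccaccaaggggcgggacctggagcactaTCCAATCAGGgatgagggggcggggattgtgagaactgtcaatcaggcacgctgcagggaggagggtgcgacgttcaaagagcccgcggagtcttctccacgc
ZNF428 promoter: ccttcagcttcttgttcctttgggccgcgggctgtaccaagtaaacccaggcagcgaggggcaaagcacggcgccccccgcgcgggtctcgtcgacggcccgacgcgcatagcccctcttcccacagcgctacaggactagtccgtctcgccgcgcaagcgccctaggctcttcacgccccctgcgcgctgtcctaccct

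ZNF100 and ZNF43 share more of the surrounding letters than the word itself, and ZNF43 holds the word 2 times. ZNF428 shows no capitals, which says only that these letters are not in that stretch. All 31 windows with the word belong to members in 3 stretches of chromosome 19: 18 of the 19 windows between ZNF101 and ZNF254, 10 of the 17 between ZNF653 and ZNF791 and 3 of the 5 between ZNF554 and ZNF77. These members are near relatives and their promoters are not independent.

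Members with and without the word both fell. The 31 members with it had median changes at 250 nM of -1.32 in MDA-MB-468, -1.81 in ZR-75-1 and -1.29 in T47D, and 24 of them were lower in all 3 lines. The 135 without it had medians of -1.10, -1.28 and -0.97, and 88 were lower in all 3 lines. Windows of ZNF85, ZNF91, ZNF440, ZNF626 and ZNF726, which were called lower in no replicated line, also held the word. Those of ZNF181, ZNF557, ZNF606 and ZNF772 did not, with mean changes over the replicated lines of -2.9, -2.7, -2.61 and -2.57. The printed promoters were chosen for both the word and the fall, so they do not show a link between them. CCGGAAG was in 40.4% of member windows, 39.5% of those of other ZNF genes and 18.2% of those of all genes tested. The plain CCAAT box, which CCTGATTGGA contains on the opposite strand, was in 52.4% against 36.6%, the GC box GGGCGG in 68.7% against 69.2% and TATAAA in 1.81% against 6.12%. All words were searched on both strands. Member windows had a mean GC content of 60.8% against 64.5% for all genes tested, and a median of 21 against 26 CG dinucleotides.

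Members were low on these arrays, and a fall that ends at background is understated. The median member had a mean log2 level of 6.90 with DMSO in MDA-MB-468, 6.58 in ZR-75-1, 6.75 in T47D and 6.42 in BT-549, where the median of all genes tested was 7.69, 7.57, 7.73 and 7.52. With DMSO, 2, 15, 3 and 2 members had no array above background in these lines, and at 250 nM 26, 70, 25 and 62. In ZR-75-1, 17 of the 42 members within 1 log2 unit of background or below it were called lower (median -0.31), against 55 of 63 at 1 to 2 units above (median -1.38) and 72 of 80 over 2 units above (median -1.81). In MDA-MB-468 the same 3 classes had 8 of 12, 50 of 60 and 98 of 113 lower, and in T47D 12 of 22, 54 of 68 and 78 of 95.

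**Figure D3:**
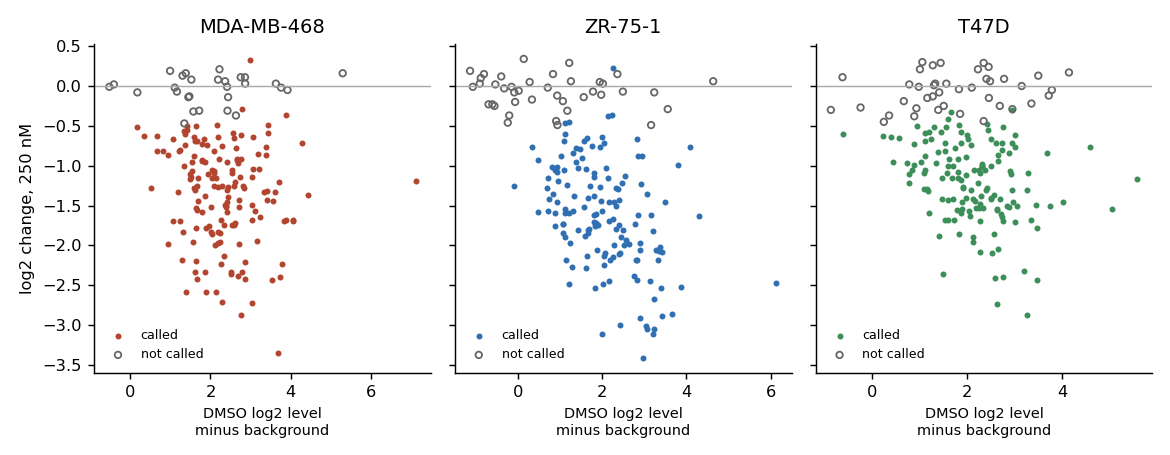
The log2 change of each of 185 members at 250 nM against its DMSO log2 level above the array background, in the 3 replicated lines; filled points were called at an adjusted p under 0.05 and open points were not. In ZR-75-1, 42 members lie within 1 log2 unit of background or below it, and 17 of them were called lower.

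Members with a described function were followed by name in a list of 12. ZNF91 and ZNF93 are repressors of the SVA and LINE-1 retrotransposons. ZNF93 was at 326 and 349 with DMSO and 65.3 and 62.5 at 250 nM in MDA-MB-468, 264 and 290 and then 62.6 and 69.6 in ZR-75-1, and 162 and 170 and then 60.8 and 63.0 in T47D. Its changes were -2.40 ± 0.08 (adjusted p = 3.35e-12), -2.07 ± 0.08 (adjusted p = 9.11e-12) and -1.42 ± 0.08 (adjusted p = 2.15e-09), and the arrays of the dose groups did not overlap. ZNF91 did not pass the test on the probe set used, with 0.03 ± 0.09 (adjusted p = 0.841), 0.06 ± 0.09 (adjusted p = 0.624) and -0.22 ± 0.09 (adjusted p = 0.0566). That probe set carries probes shared with other transcripts, and with the mean of all its probe sets ZNF91 was at -0.83 in MDA-MB-468 and -1.16 in ZR-75-1, so its direction rests on the probe set. Only 1 probe set of ZNF91 was counted as measured, so that mean also takes in probe sets that were not.

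ZNF611, ZNF649, ZNF765 and ZNF808 also bind transposable elements. ZNF765 was lower in all 3 lines at 250 nM, by -1.69 ± 0.15, -2.02 ± 0.15 and -1.49 ± 0.15. ZNF611 was lower by -0.64 ± 0.14 in MDA-MB-468, -1.28 ± 0.14 in ZR-75-1 and -1.54 ± 0.14 in T47D. ZNF649 was at 114 and 110 with DMSO and 18.4 and 18.8 at 250 nM in MDA-MB-468, while no DMSO array of ZR-75-1 was above background for it (26.3 and 22.6). ZNF808 was called lower in MDA-MB-468 (-0.56 ± 0.20, adjusted p = 0.0360) and T47D (-0.67 ± 0.20, adjusted p = 0.0135) and missed the threshold in ZR-75-1 (-0.49 ± 0.20, adjusted p = 0.0511).

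ZNF274, which brings SETDB1 to the coding ends of zinc finger genes themselves, was at 372 and 381 with DMSO and 116 and 119 at 250 nM in MDA-MB-468. In ZR-75-1 it was at 223 and 182 and then 52.2 and 50.8, and in T47D at 418 and 416 and then 157 and 149. The 250 nM arrays were below the DMSO arrays in each line, with changes of -1.68 ± 0.09, -1.97 ± 0.09 and -1.45 ± 0.09. ZNF473, a factor of histone pre-mRNA processing, was lower by -0.96 ± 0.13, -1.46 ± 0.13 and -1.0 ± 0.13. ZNF420, an inhibitor of p53-dependent apoptosis, was lower by -1.83 ± 0.17 in MDA-MB-468 and -1.09 ± 0.17 in T47D, and by at least 1.92-fold in ZR-75-1. ZNF224, a repressor of aldolase A, was lower in MDA-MB-468 (-0.95 ± 0.15) and ZR-75-1 (-0.69 ± 0.15) and missed the threshold in T47D (-0.38 ± 0.15, adjusted p = 0.0555).

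ZNF146, which consists of fingers without a KRAB domain, stayed far above background throughout. It was at 3463 and 3555 with DMSO, 2698 and 2633 at 50 nM and 1516 and 1567 at 250 nM in MDA-MB-468. In ZR-75-1 it was at 1873 and 1951, then 1726 and 1577, then 360 and 331. In T47D it was at 1307 and 1164, then 1173 and 1259, then 531 and 568. The 250 nM arrays were the lowest of each line, a fall of 2.28-fold, 5.54-fold and 2.24-fold, and in T47D the DMSO and 50 nM arrays overlapped. The largest fall of this gene was thus in ZR-75-1, and it is not limited by background in any line.

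At 50 nM fewer members were called, and the number differed widely between lines. In MDA-MB-468, 78 members were lower and 3 higher, where 14.6% of all genes tested were lower and 4.42% higher, and the members' median was -0.36 against -0.06 for all genes. In T47D, 26 were lower and 2 higher beside 7.56% and 1.99% of all genes, with medians of -0.16 and -0.03. In ZR-75-1, 12 were lower and 1 higher beside 5.68% and 2.79%, with medians of -0.08 and 0. The share of members called lower in ZR-75-1, 6.49%, was near that of all genes. Whether the response at 50 nM differs between lines was not tested. The counts in T47D and ZR-75-1 rest on single arrays: without T47D DMSO replicate 1, DMSO replicate 2 or 50 nM replicate 1 the T47D count was 13, 17 or 15, and without ZR-75-1 50 nM replicate 2 the ZR-75-1 count was 5, and 7 without any 1 of the other DMSO or 50 nM arrays of that line.

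At 50 nM, 12 members were called lower in all 3 lines, where 2.83% of all genes tested were: ZNF137P, ZNF429, ZNF490, ZNF544, ZNF557, ZNF566, ZNF573, ZNF606, ZNF607, ZNF610, ZNF611 and ZNF772. Another 12 were lower in 2 lines, 56 in 1 line and 105 in none. ZNF610 had the largest measured fall of any member in T47D. It was at 76.8 and 84.0 with DMSO and 29.3 and 25.6 at 50 nM in MDA-MB-468, 38.7 and 36.4 and then 19.8 and 18.4 in ZR-75-1, and 93.8 and 88.9 and then 37.0 and 32.6 in T47D. The 50 nM arrays were below the DMSO arrays in all 3 lines, with changes of -1.55 ± 0.17 (adjusted p = 1.41e-05) in MDA-MB-468 and -1.39 ± 0.17 (adjusted p = 1.02e-04) in T47D. No 50 nM array of ZR-75-1 was above background for it, so the fall there was at least 1.41-fold (adjusted p = 0.00266), and ZNF606 had the largest measured fall in that line.

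Other members with the largest falls at 50 nM were ZNF429, ZNF254, ZNF137P and ZNF557 in MDA-MB-468. ZNF429 was at 139 and 138 with DMSO and 38.3 and 47.4 at 50 nM there, a change of -1.70 ± 0.19, and its 250 nM arrays, at 64.4 and 43.4, overlapped those at 50 nM. ZNF254 fell at least 1.95-fold. In T47D they were ZNF264 (-1.38 ± 0.15), ZNF429 (-1.25 ± 0.19), ZNF611 (-1.08 ± 0.14) and ZNF606 (-0.96 ± 0.12), and in ZR-75-1 ZNF606 (-0.94 ± 0.12), ZNF137P (at least 1.67-fold), ZNF557 (-0.81 ± 0.15) and ZNF429 (-0.72 ± 0.19).

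Raising the dose from 50 to 250 nM lowered most members further. In MDA-MB-468, 121 were lower and 3 higher at 250 than at 50 nM, where 23.2% and 5.73% of all genes were. In ZR-75-1 the counts were 146 and 1 beside 41.7% and 6.64%, and in T47D 134 and 1 beside 27.2% and 4.59%. ZNF627 had the largest difference measured on both sides in MDA-MB-468 (-2.34 ± 0.13) and ZR-75-1 (-2.85 ± 0.13), and in T47D ZNF557 (-2.07 ± 0.15) and ZNF627 (-2.01 ± 0.13) did. Other members ended at background: ZNF230 and ZNF223 were at least 3.21-fold and 3.81-fold lower in MDA-MB-468, ZNF772 and ZNF823 at least 4.76-fold and 6.06-fold lower in ZR-75-1, and ZNF181 at least 3.69-fold lower in T47D. ZNF223 showed the step plainly in MDA-MB-468, at 121 and 129 with DMSO, 109 and 103 at 50 nM and 18.7 and 19.5 at 250 nM. In the other direction, the pseudogene ZNF137P was at least 1.34-fold higher at 250 than at 50 nM in MDA-MB-468 (adjusted p = 0.0182), with no 50 nM array above background, from 22.03 and 22.5 to 39.5 and 29.1, both below the 55.1 and 64.0 with DMSO.

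BT-549 has 1 array per group and no test. At 50 nM, 38 members had an intensity at least 2-fold below DMSO, where 3.24% of all genes tested did, with a median change of -0.58 against -0.04. With values that are not above background held at it, 34 did and the median was -0.53. ZNF264 went from 248 to 68.0, ZNF507 from 173 to 52.5 and ZNF181 from 88.1 to 27.7. ZNF439 and ZNF607 had no signal above background at 50 nM and were at least 2.29-fold and 2.85-fold lower. At 250 nM, 96 members had an intensity at least 2-fold below DMSO beside 8.94% of all genes, 0 were at least 2-fold above beside 0.182%, and the median change was -1.07 against 0.01. Held at background, 75 were and the median was -0.83. The shares and medians of all genes for BT-549 are without this bound. The largest differences measured on both sides were in ZNF765, from 286 to 36.6 (7.81-fold), ZNF627 (7.63-fold) and ZNF264, from 248 to 37.3 (6.65-fold).

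A fit on 12 means, 1 per line and dose, with the line as a term included BT-549. At 250 nM, 150 members were lower across the 4 lines and 0 higher, where 29.9% and 9.48% of all genes were. ZNF627 (-2.93 ± 0.19, SE over 4 lines, adjusted p = 4.65e-05), ZNF181 (-2.68 ± 0.30), ZNF557 (-2.68 ± 0.22), ZNF606 (-2.48 ± 0.21) and ZNF772 (-2.35 ± 0.34) had the largest changes, of which all but ZNF627 include lines that ended at background. ZNF627 itself had only 1 of 2 arrays above background at 250 nM in ZR-75-1. At 50 nM the same fit called 2 members lower, beside 0.316% of all genes: ZNF610 (-1.37 ± 0.16, adjusted p = 0.0245) and ZNF137P (adjusted p = 0.0332). ZNF137P was above background at 50 nM in no line and ZNF610 in neither ZR-75-1 nor BT-549, so in those lines the fall is only a bound. That count was 4 without ZR-75-1 DMSO replicate 2, ZR-75-1 50 nM replicate 2, T47D DMSO replicate 1 or T47D 50 nM replicate 2, and 5 without ZR-75-1 250 nM replicate 2.

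The 20 members called lower in no replicated line at 250 nM were ZNF85, ZNF91, ZNF121, ZNF226, ZNF358, ZNF414, ZNF428, ZNF440, ZNF497, ZNF536, ZNF541, ZNF568, ZNF575, ZNF580, ZNF626, ZNF667-AS1, ZNF726, ZNF780A, ZNF835 and ZNF880. Their changes lay between -0.49 and 0.33 in the 3 lines. Their median DMSO log2 level was 6.64, and that of the 125 members lower in all 3 lines was 6.92. Probe sets that share probes with other transcripts represented 9 of these 20 members and 51 of the other 165. Of the 8 with more than 1 measured probe set, 5 had another probe set called lower in at least 1 line, so not all of the 20 can be called unresponsive.

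ZNF428 was among the few higher members. It was at 137 and 123 with DMSO, 150 and 169 at 50 nM and 152 and 153 at 250 nM in ZR-75-1, a rise of 0.23 ± 0.08 at 250 nM (adjusted p = 0.0226) and 0.30 ± 0.08 at 50 nM (adjusted p = 0.0328). In MDA-MB-468 it was at 1003 and 998.5, then 1242 and 1195, then 1109 and 1131, and rose at 50 nM by 0.28 ± 0.08 (adjusted p = 0.0215). The ZR-75-1 call at 250 nM was lost without any 1 of ZR-75-1 DMSO replicate 2, 250 nM replicate 1 or 250 nM replicate 2, when the count of higher members was 0, and the count was 2 without either T47D 250 nM array. The 50 nM call in ZR-75-1 was lost without DMSO replicate 2 or 50 nM replicate 2, and that in MDA-MB-468 without any 1 of its DMSO and 50 nM arrays. ZNF667-AS1 stayed level at 456 and 455 with DMSO and 503 and 521 at 250 nM in T47D, and was not above background with DMSO in ZR-75-1.

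Some of the apparent rises in MDA-MB-468 depended on the probe set. ZNF226 rose by 0.33 ± 0.08 at 250 nM (adjusted p = 0.00263), from 191 and 212 to 253 and 254, on a probe set with shared probes, while of its other probe sets 1 fell by 3.08 there and 1 was at 0.47 ± 0.14. ZNF562 rose by 0.47 ± 0.13 at 50 nM, from 352 and 398 to 549 and 487, while another of its probe sets fell by 0.75. At 50 nM in T47D, ZNF570 (0.54 ± 0.14) and ZNF442 (0.53 ± 0.15) were called higher, and neither call was made without T47D DMSO replicate 1 or either 50 nM array, when the count of higher members was 0; without DMSO replicate 2 it was 1. The 3 members called higher at 50 nM in MDA-MB-468 fell to 0 without DMSO replicate 1 or 50 nM replicate 1 and to 1 without 50 nM replicate 2.

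Probe sets of the same member mostly went together when the member fell. At 250 nM, 73 called members in MDA-MB-468, 71 in ZR-75-1 and 68 in T47D had several measured probe sets. All probe sets were called in the same direction for 61, 62 and 52 of them, and a probe set was called in the opposite direction for 1, 1 and 3. The 125 members represented by a probe set without the suffix for shared probes had medians of -1.15, -1.28 and -0.97, and the 44 with the suffix x, which marks probes that match other transcripts, had medians of -1.07, -1.57 and -1.02.

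Along the chromosome, the falls were spread over all large clusters. Members were joined into runs wherever at most 5 protein-coding genes without a ZNF, ZFP, ZSCAN or ZIK symbol lay between neighbours. This gave 22 runs over the 183 members with a known order, and 6 runs of 17 or more members held 137 of them. At 250 nM the medians, in the line order used above, were -1.28, -1.54 and -0.96 from ZNF653 to ZNF791 and -1.35, -1.72 and -0.90 from ZNF101 to ZNF254. They were -1.22, -1.5 and -1.06 from ZNF565 to ZNF573 and -1.45, -1.41 and -1.10 from ZNF283 to ZNF180. They were -1.06, -1.40 and -1.07 from ZNF649 to ZNF331 and -1.44, -1.62 and -1.38 from ZNF264 to ZNF446. Members lower in all 3 lines numbered 13 of 17, 15 of 22, 17 of 20, 12 of 17, 19 of 28 and 28 of 33 in this order. Smaller runs differed more: the 3 members from ZNF575 to ZNF428 had medians of 0.16, 0.15 and 0.13, and the 7 from ZNF787 to ZNF835 had -0.60, -0.02 and -0.37.

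**Figure D4:**
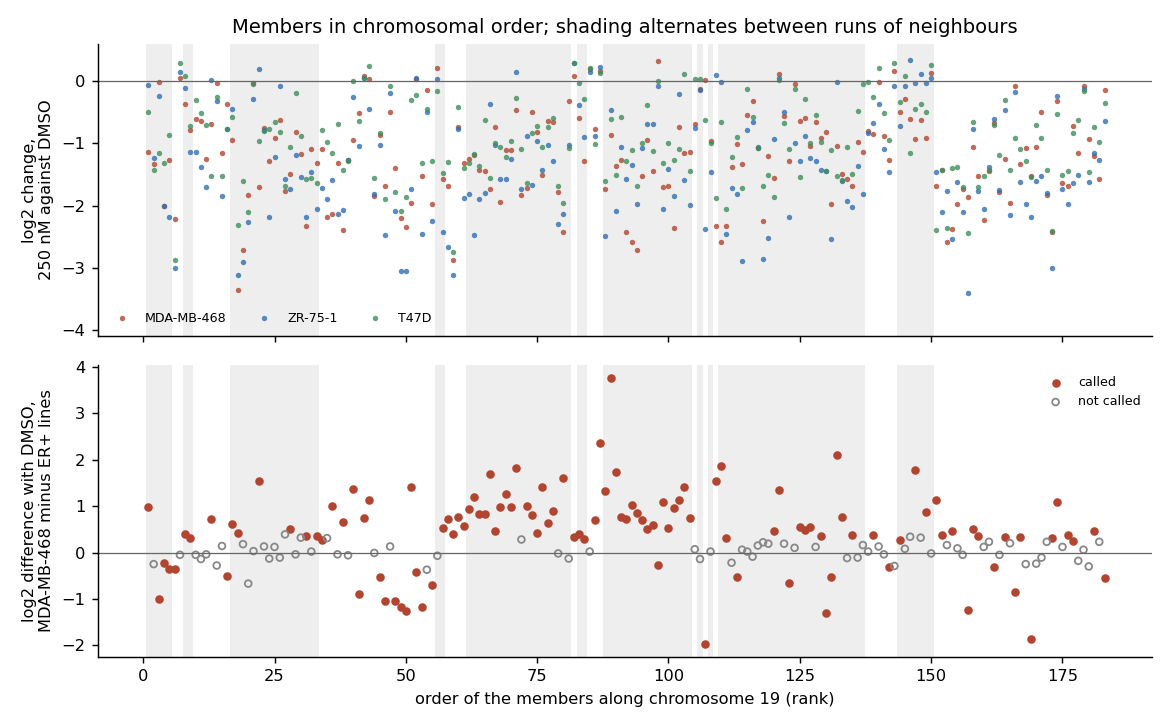
Top, the log2 change at 250 nM of 183 members in order along chromosome 19 for the 3 replicated lines; bottom, the log2 difference with DMSO of MDA-MB-468 minus the mean of ZR-75-1 and T47D, filled where called. Shading alternates between 22 runs of neighbours, and falls are spread over all large runs. In the bottom plot 17 of 20 members from ZNF565 to ZNF573 and 16 of 17 from ZNF283 to ZNF180 are higher in MDA-MB-468. Both of these runs hold members that reached the minimum signal only through that line.

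The untreated levels were compared between lines as well. With DMSO, 90 members were higher and 26 lower in MDA-MB-468 than in the ER+ lines' mean, where 33.1% and 34.4% of all genes tested were. The other genes of chromosome 19 leaned the same way, with 344 of 770 higher and 124 lower, and the ZNF genes elsewhere did not, with 56 of 198 higher and 79 lower. Members higher in MDA-MB-468 were 17 of 20, with 0 lower, from ZNF565 to ZNF573, and 16 of 17, with 1 lower, from ZNF283 to ZNF180. Both runs hold members that reached the minimum signal only through MDA-MB-468, such as ZNF568 in the first and ZNF222 and ZNF404 in the second. For such members the filter itself favours a higher level there, and they were not set aside in these counts. From ZNF101 to ZNF254, 7 of 22 were higher and 9 lower. In the other large runs, 6 of 17 from ZNF653 to ZNF791, 11 of 28 from ZNF649 to ZNF331 and 12 of 33 from ZNF264 to ZNF446 were higher. No test of a difference between runs was made. Between the ER+ lines, 62 members were lower and 39 higher in ZR-75-1 than in T47D, beside 37.1% and 25.9% of all genes.

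Some members were on in one line and at background in another. ZNF404, which reached the minimum signal only through MDA-MB-468, was at 257 and 274 with DMSO there. It was at most 25.8 on the DMSO arrays of ZR-75-1 and T47D, none of them above background. ZNF415 was at 192 and 233 in MDA-MB-468, 194 and 188 in T47D and 14.6 and 11.4 in ZR-75-1. ZNF114, which reached the minimum signal only through ZR-75-1, was at 182 and 186 in ZR-75-1, 27.0 and 34.0 in T47D and 18.3 and 20.2 in MDA-MB-468. ZNF428 was above background in all lines and higher in MDA-MB-468 by 2.36 ± 0.07 (adjusted p = 6.44e-14), and ZNF552 was lower there by -1.86 ± 0.10, at 125 and 141 against 281 and 266 in ZR-75-1 and 856 and 849 in T47D. Of the 116 members that differed between MDA-MB-468 and the ER+ lines, 17 had a line with no DMSO array above background, and of the 101 that differed between ZR-75-1 and T47D, 15 did.

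The response at 250 nM differed between MDA-MB-468 and the ER+ lines in 39 members. The change was more negative in MDA-MB-468 for 19 members and less negative for 20, where the response was lower in 5.12% and higher in 13.9% of all genes tested. Among these 39 members, 8 had a line with no DMSO array above background, in which no fall could be seen, and 20 had a line with no array above background with DMSO or at 250 nM. Of the 19 above background in all these groups, 6 were more negative in MDA-MB-468 and 13 less, and of the 23 over 1 log2 unit above background with DMSO in every line, 6 and 17. ZNF222 ended at background in all 3 lines from a higher start in MDA-MB-468 (94.1 and 94.9, against 54.4 and 43.3 in ZR-75-1 and 42.6 and 45.7 in T47D), so no difference in its fall can be read. ZNF614 fell less in MDA-MB-468 (0.97 ± 0.16, adjusted p = 5.49e-04), from 272 and 241 to 89.4 and 117, against 287 and 290 to 38.0 and 40.1 in ZR-75-1 and 209 and 209 to 55.6 and 73.6 in T47D. ZNF480 fell less in MDA-MB-468 (0.80 ± 0.15, adjusted p = 0.00123), from 317 and 350 to 143 and 145, against 429 and 370 to 70.5 and 68.2 in ZR-75-1 and 216 and 212 to 78.0 and 73.6 in T47D. The count of 39 was 25 without MDA-MB-468 250 nM replicate 2 and 26 without DMSO replicate 1. This contrast sets 1 replicated triple-negative line against 2 ER+ lines, so receptor status and line cannot be told apart.

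The ER+ lines differed from each other in more members. The response was lower in ZR-75-1 than in T47D for 61 members and higher for 13, where 19.8% and 2.44% of all genes tested were. Of these 74, 8 had a line with no DMSO array above background, and among the 55 that lay over 1 log2 unit above background in both lines, 54 had the more negative change in ZR-75-1 and 1 in T47D. Of the 44 above background with DMSO and at 250 nM in both lines, 41 and 3 did. ZNF331, an imprinted gene that is rearranged in thyroid tumours, gave the largest difference (-1.78 ± 0.13, adjusted p = 2.73e-07). It was at 254 and 249.1 with DMSO and 70.3 and 72.1 at 250 nM in ZR-75-1, and at 92.2 and 90.2 and then 85.5 and 92.0 in T47D, where the arrays overlapped. In MDA-MB-468 it went from 163 and 176 to 81.2 and 72.5, and the single BT-549 arrays from 84.8 with DMSO to 100 at 50 nM and 144 at 250 nM. ZNF253 fell from 117 and 109 to 23.9 and 27.6 in ZR-75-1 and from 59.0 and 53.0 to 34.2 and 35.0 in T47D. No 250 nM array of ZR-75-1 was above background for it, so its fall there was at least 3.78-fold.

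Genes related to silencing by KRAB zinc finger proteins, not all of them cofactors, were read from a list of 34 genes, all tested, that are not members. At 250 nM, 16 were lower and 4 higher in MDA-MB-468 (beside 30.3% and 9.54% of all genes), 17 and 6 in ZR-75-1 (42.8% and 9.93%) and 14 and 1 in T47D (33.7% and 9.61%), and the list's medians were -0.23, -0.24 and -0.16 against -0.07, -0.18 and -0.08 for all genes tested. TRIM28, the KRAB corepressor itself, was called lower in no line and higher in ZR-75-1: 0.17 ± 0.07 in MDA-MB-468 (adjusted p = 0.0795), 0.20 ± 0.07 in ZR-75-1 (adjusted p = 0.0342) and 0.17 ± 0.07 in T47D (adjusted p = 0.0761). TRIM28 and HDAC1 are named here after their values were seen. SETDB1, the methyltransferase that TRIM28 recruits, was lower in all 3 lines, by -0.78 ± 0.10, -1.72 ± 0.10 and -1.0 ± 0.10. RESF1, a partner of SETDB1, had the largest falls of the list, at -2.05 ± 0.17, -2.65 ± 0.17 and -2.0 ± 0.17. Also lower in all 3 lines, in the same order, were MORC3 (-1.41, -1.63 and -0.80, each ± 0.14), KDM4A (-1.08, -1.15 and -1.32, each ± 0.10) and SMARCAD1 (-0.80, -1.98 and -1.04, each ± 0.06). TASOR, of the HUSH complex (-0.54, -0.84 and -1.29), and MORC2 (-0.90, -0.99 and -0.92, all ± 0.07) were lower too. HDAC1, a histone deacetylase, was higher in all 3 lines, by 0.29 ± 0.05, 0.44 ± 0.05 and 0.32 ± 0.05.

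Scaling moved the level of the change and little of the distance from other genes. The median of all genes tested at 250 nM lay at -0.07, -0.18 and -0.08 as deposited and at 0.13, 0.07 and 0.05 when each array was centred on its median. The members' median differed from that of all genes by -1.08, -1.20 and -0.92 as deposited. Centring shifts all genes of an array alike, so it cannot change this distance. With quantile normalization, which can, the distance was -1.0, -1.28 and -0.90.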

How the data were processed

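Total RNA was measured on 21 Affymetrix PrimeView arrays. The deposited values are linear intensity per probe set, made with MAS5 per the submitters' processing notes; how arrays were scaled is not given in these sources. Per the labels' protocols, spike-in RNA was added by cell number before a fixed amount of total RNA was amplified. No spike-in probe set is named in the table, so changes are not per cell. All arrays were used. Of 49395 probe sets, 44994 have 1 gene symbol, 1832 several and 2569 no entry, and only the first were used.

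The deposited intensity was floored at 1 and taken to log2 with no further scaling. Each gene was represented by its probe set with the highest mean. Group means of the 3 replicated lines (18 arrays) were fitted in limma 3.58.1 (R 4.3.3), with a variance trend in eBayes and with 9 residual plus 6.18 prior degrees of freedom; the script was tested on simulated data. BT-549, with 1 array per group, entered only a fit on 12 means (6 residual degrees of freedom). Background is the mean of 23 background probe sets per array, and bounds on folds, with the counts and medians that use them, were added after the data were seen. Chromosome and gene order come from RefSeq (GRCh38.p14). No protein sequences were used, so the planned grouping by KRAB box and finger number was not run. The number of arrays limits the precision.

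The members and lists were chosen with earlier results of these data known. Members were named for a known role (12) or, per line, for the largest called changes with both treated arrays beyond both DMSO arrays (8 negative and 3 positive at 250 nM, 5 and 3 at 50 nM), with 3 and 1 between doses, 5 for BT-549 and across lines, and 4 per direction between lines. Genes of the KRAB-related list were named by size of change, up to 4 per line at 250 nM, with TRIM28 and HDAC1 added.

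Alternatives were 3 scalings, 2 filters, a floor of 16, 2 choices of probe set, no trend, each line alone, a replicate block and each array left out.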

Additional observations from a re-analysis of the deposited data

Results flagged for a closer look

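The change at 250 nM differed between lines, by an interaction term in the limma fit, for the members below, the 4 largest per direction; values are log2 differences in response, and their causes were not tested. Against the ER+ lines' mean, the fitted change was more negative in MDA-MB-468 for ZNF649 (-2.26), ZNF175 (-1.44), ZNF222 (-1.35) and ZNF439 (-1.31). The fitted change was more negative in the ER+ lines for ZNF114 (1.53), ZNF772 (1.07), ZNF614 (0.97) and ZNF480 (0.80). ZNF649, ZNF175 and ZNF439 had no DMSO array above background in ZR-75-1, and ZNF114 none in MDA-MB-468, so in those lines no fall could be seen. The other 4 were above background with DMSO in all 3 lines. At 250 nM ZNF222 had no array above background in any of them and ZNF772 none in ZR-75-1, so background limits these values too; ZNF614 and ZNF480 were above it with DMSO and at 250 nM.

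Between the ER+ lines, the fitted change was more negative in ZR-75-1 for ZNF331 (-1.78), ZNF114 (-1.75), ZNF229 (-1.70) and ZNF253 (-1.44). It was more negative in T47D for ZNF175 (1.98), ZNF426 (1.55), ZNF415 (1.51) and ZNF583 (1.5). ZNF229 had no DMSO array above background in T47D, and ZNF175, ZNF426 and ZNF415 had none in ZR-75-1, where ZNF583 had 1 of 2. At 250 nM ZNF253 and ZNF229 had no array above background in ZR-75-1. ZNF114 and ZNF175 had none at 250 nM in T47D, so background limits these values too.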

How the results depend on the processing

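With 2 arrays per group and members near background, small falls and falls to background are the least certain. Of 143 values for named members, 112 kept their direction and call under all alternatives, and 31 changed under at least 1. The direction reversed for ZNF91 at 250 nM (-0.83 in MDA-MB-468 and -1.16 in ZR-75-1) and ZNF226 in MDA-MB-468 (-0.69 at 250 nM and -0.26 at 50 nM) with the mean of all probe sets, and for ZNF562 at 50 nM in MDA-MB-468 (-0.28 with that mean, -0.75 without shared-probe sets).

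The stricter filter, which tests fewer genes, lowered the members called to 102 lower at 250 nM in MDA-MB-468, 77 different with DMSO between MDA-MB-468 and the ER+ lines, 99 across 4 lines at 250 nM, 0 across 4 lines at 50 nM and 0 higher at 50 nM in T47D. Without a filter, 4 were called across 4 lines at 50 nM and 1 was higher at 50 nM in T47D. Higher members at 250 nM, with lines in the order MDA-MB-468, ZR-75-1, T47D, numbered 5, 6 and 6 with centring, 7, 11 and 10 with quantile normalization and 2, 4 and 6 with the trimmed mean. At 50 nM centring gave 6 higher in MDA-MB-468 and 0 in ZR-75-1, and across 4 lines centring, quantile normalization and the trimmed mean gave 6, 5 and 6. With the mean of all probe sets, higher members numbered 1 at 50 nM and 0 at 250 nM in MDA-MB-468 and 4 at 50 nM in T47D, 0 were called across 4 lines at 50 nM, and BT-549 had 24 at least 2-fold lower at 50 nM. Without shared-probe sets, 1 was higher at 50 nM in MDA-MB-468 and 0 in ZR-75-1 at either dose. With the arrays of 1 line alone, 2 were higher at 250 nM in MDA-MB-468, 0 in ZR-75-1 at either dose and 1 at 50 nM in T47D.

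Leaving out 1 array at a time, lower members ranged from 147 to 157, 140 to 146 and 127 to 145 at 250 nM, in that line order, and from 55 to 80, 5 to 13 and 13 to 27 at 50 nM. Higher members ranged from 1 to 1, 0 to 2 and 0 to 2 at 250 nM and from 0 to 3, 0 to 1 and 0 to 3 at 50 nM. Differences in response ranged from 25 to 40 (MDA-MB-468 against ER+) and 54 to 76 (ZR-75-1 against T47D), and calls across 4 lines from 149 to 154 at 250 nM and 2 to 5 at 50 nM. Where this left 1 array in a group, it was assumed to vary like the other groups.

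Replicate numbers did not pair the arrays: the deviations of same-numbered arrays correlated between -0.22 and 0.29, with 6 of 9 values under 0.1. With the replicate block, lower members numbered 156, 145 and 145 at 250 nM and 80, 12 and 29 at 50 nM, again in that order, and the 1 higher member at 50 nM in ZR-75-1 became 0.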
